A study of Mus musculus with 10 samples.

Results

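The MMP, ADAM and ADAMTS metalloproteases were followed in the left ventricle of mice after transverse aortic banding (TAB), an operation that narrows the aorta and puts the heart under pressure overload. Members were all array genes whose symbol was Mmp, Adam or Adamts followed by a number and at most 1 letter. This gave 67 genes on 79 probes, of 19942 gene symbols on 26423 probes, and they fell into 21 MMP, 27 ADAM and 19 ADAMTS genes. All animals were male C57BL/6J mice operated on at 8 weeks of age under isoflurane, and the samples differed by operation, TAB or sham, and by day. Total RNA of the left ventricle was taken on days 3, 5, 7, 14 and 28, with 1 TAB and 1 sham sample on each day and 10 samples in all. The number of mice behind a sample was not given in the sources used here, so p-values measured the spread of these samples over the days. The title of the day-14 TAB sample gave that day and another of its fields gave a different one, and the title was followed.

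Metalloproteases of these families hold a zinc ion in their active site and are made as inactive precursors. MMPs cut matrix proteins such as collagens and elastin. Most ADAMs sit in the cell membrane and release, or shed, the outer parts of other membrane proteins, while several others are known from sperm. ADAMTS enzymes are secreted and cut proteoglycans, procollagens and von Willebrand factor. In the heart, members of all 3 families are known for matrix turnover and ligand shedding after injury and overload, and the TIMP proteins inhibit many of them.

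Each array gave an intensity per probe in 1 colour, and a flag for spots that the scanning software did not find. A spot that was not found was read as not well above background. From 40.2% to 47.3% of the spots of an array were not found, so detection was taken up before change. Of the 67 members, 28 were found on all 10 arrays (9 MMP, 12 ADAM and 7 ADAMTS genes), 14 on 1 to 9 arrays and 25 on none. The labelled tissue was checked on 8 cardiomyocyte genes, all of which were found on all 10 arrays. Of 4 atrial genes, Nppa was higher in TAB (1.81, SE 0.19, adjusted p = 0.0120) and the others were not called, with mean log2 ratios from −0.90 to −0.40. These 3 were highest in the day-14 sham sample, where Sln measured 1761, Myl7 3862 and Myl4 4350 against at most 1045, 2524 and 3717 in the other sham samples, and their day-14 log2 ratios were −2.76, −2.24 and −1.56. Nppa was also highest in sham there, at 16119. Precision was limited by the number of arrays.

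All 6 called members with a mean log2 ratio beyond 1 were higher after TAB, but for Adamts8 and Adam12 the sham spots were not found. The share of all genes that met both conditions was not counted. Probes that fell under a scaled intensity of 1 on any array were removed, which left 47 members to be tested with limma (day as a block, Benjamini-Hochberg adjustment over 16113 genes), and an adjusted p under 0.05 was taken as a call. Of the 47, 11 were higher in TAB (Adamts8, Adam12, Mmp23, Adamts2, Mmp2, Mmp14, Adam9, Adam15, Adamts9, Adam10 and Adamts17) and 5 were lower (Adamts19, Adam28, Adamts12, Adam7 and Mmp15), of which Adamts12 was found on 1 array. Among all genes 9.19% were called higher and 7.87% lower. Of the 28 members found on all arrays, 8 were higher and 4 lower, where 10.5% and 9.66% of all genes found on all arrays were called. At an unadjusted p under 0.05 there were 24 members, and 35.7% of all genes. The median of the mean log2 TAB/sham ratio was −0.02 over the 47 tested members and −0.03 over all genes, and 0.16 over the 28 members found on all arrays. All 5 TAB samples lay above all 5 sham samples for 9 members (9.99% of all genes) and below them for 3 (7.76% of all genes). A call rested on 5 days, and without day 3, day 5 or day 7 only Adamts8 was still called among the members. Over all genes, 28 were then still called higher and 1 lower without day 3, 51 and 4 without day 5, and 22 and 3 without day 7, against 1481 and 1268 with all days. The ratios themselves moved less, and the log2 ratio of Adamts2 was 1.58, 1.45 and 1.45 without these days against 1.56. Without day 14 the calls were Adamts8, Adamts2, Mmp14, Mmp2 and Mmp23, all higher. Without day 28 they were 14 members higher, Adam8, Mmp17 and Mmp24 added, and Adam28 and Adamts19 lower. With median scaling alone the calls of Adam12, Adamts17, Adam7, Adamts12 and Mmp15 were lost and Mmp12 was called lower.

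**Figure D1:**
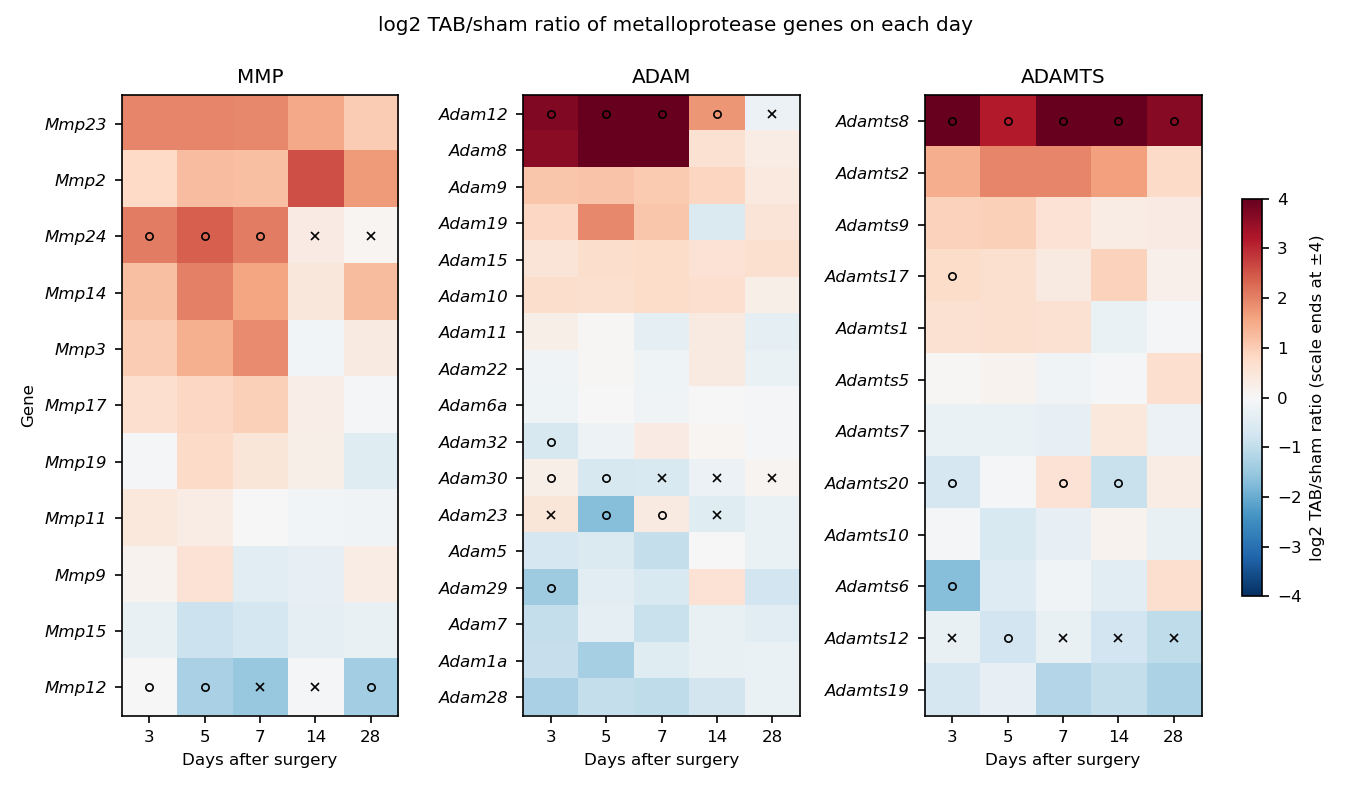
Log2 TAB/sham ratio (colour, red for higher in TAB) of the 40 tested members found on at least 1 array, by family and day after surgery, ordered by the mean over the 5 days. Circles mark days on which the spot was found in 1 of the 2 samples, and crosses days on which it was found in neither. Adamts8 is dark red on all 5 days, while Adam8, Adam12 and Mmp24 are red on days 3 to 7 and pale on day 28.

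Adamts8 encodes a secreted protease of the ADAMTS family. Its normalized intensity in TAB was 96.5, 107, 94.8, 44.1 and 58.6, listed from day 3 to day 28 as in all sets of 5 values here. In sham it was 5.06, 11.8, 5.00, 1.63 and 4.73, and the spot was found on all 5 TAB arrays and on no sham array. Every TAB sample lay above every sham sample. The mean log2 ratio was 4.01 (SE 0.24, limma adjusted p = 0.0043). As the sham level was not well above background, the change was given as a bound, with TAB at least 8.83-fold higher than the dimmest level that counted as found. Another probe of the gene was also found on all TAB arrays and no sham array, with intensities of 66.5, 78.98, 82.8, 45.2 and 34.5 in TAB and a bound of at least 6.62-fold. Its fitted log2 ratio was 3.40 (SE 0.36, adjusted p = 0.0121). For a single day, a log2 ratio beyond 2 SD of all genes on that day was taken as a call, which involves no test. Adamts8 was the only member called up on all 5 days, as were 0.348% of all genes.

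Adam8, Adam12 and Mmp24 shared a course in which TAB was far above sham on days 3 to 7 and close to it on day 28. Adam8 encodes a membrane protease known from leukocytes. Its normalized intensity was 623, 814, 1114, 109 and 61.6 in TAB and 50.7, 34.99, 61.1, 71.7 and 50.01 in sham, and it was found on all arrays. The day-28 TAB value lay below the day-14 sham value, so that the groups overlapped. The mean log2 ratio over the 5 days was 2.65 (SE 0.74, adjusted p = 0.0568), which missed the threshold. It passed without the day as a block (adjusted p = 0.0319), without the dimmest tertile of genes (0.0222), without probes found on fewer than 5 arrays (0.0332), with 50 added to the intensities (0.0295) and without day 28 (0.0407), and missed it in the other 11 of 16 alternatives (0.0547 to 0.164). Its mean was 4.12 on days 3, 5 and 7 and 0.45 on days 14 and 28. The difference of 3.66 (95% interval 2.81 to 4.52) had an unadjusted limma p of 1.02e-04, the lowest of the members, and an adjusted p of 0.191.

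Adam12 encodes a membrane and secreted protease known for shedding of growth factors. It was found on all TAB arrays except that of day 28, and on no sham array, with 113, 126, 109, 33.99 and 6.90 in TAB and 8.60, 6.64, 3.88, 10.01 and 8.11 in sham. On day 28 TAB was in the sham range. The mean log2 ratio was 2.86 (SE 0.75, adjusted p = 0.0497), just past the threshold. No bound on the fold is given, as the day-28 TAB spot was not found. The call was also lost with quantile normalization to the mean of each rank. Mmp24, a membrane-type MMP known from neurons, was found on the TAB arrays of days 3, 5 and 7 only. It measured 45.2, 34.5, 34.02, 8.79 and 8.59 in TAB and 11.04, 6.64, 8.23, 6.94 and 8.11 in sham. Its mean log2 ratio was 1.38 (SE 0.40, adjusted p = 0.0619), which missed the threshold. For Mmp24 too, no bound on the fold is given, as the TAB spots of days 14 and 28 were not found.

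Of 7 tested macrophage and monocyte genes, 6 were higher in TAB, and the summed normalized intensity of the 7 was 4949, 5751, 5746, 3166 and 2778 in TAB against 1950.0, 1885, 1717, 1870.2 and 1807 in sham. All 7 were found on all TAB arrays. In TAB the sum was larger on each of days 3, 5 and 7 than on days 14 and 28. The log2 ratios of 5 of the 7, Cd68, Emr1, Csf1r, Itgam and Ccr2, were larger on each of days 3, 5 and 7 than on days 14 and 28, and those of Cd68 were 2.26, 3.04, 2.69, 1.25 and 0.80. The other 2 had another course. Cd163, a macrophage scavenger receptor, was not called and measured 339, 396, 482, 552 and 611 in TAB, highest on day 28. The log2 ratio of Cd14, a receptor for bacterial lipopolysaccharide, was largest on day 14, at 1.33. Of 7 tested neutrophil genes, S100a8 was called and was found on no array. Csf3r, the receptor for granulocyte colony-stimulating factor, was found on 3 TAB arrays and on no sham array, with 46.1, 66.3, 53.7, 12.1 and 8.59 in TAB and 14.7, 10.7, 19.8, 7.97 and 15.3 in sham, and was not called (adjusted p = 0.157). Its TAB values were above all sham values on days 3, 5 and 7 and within the sham range on days 14 and 28. The sums over the neutrophil genes were 214, 328, 301, 208 and 177 in TAB and 217, 131, 222, 168 and 196 in sham. The part of these cells in the Adam8 and Adam12 values was not tested. In a bulk sample, more cells of a type and more RNA per cell cannot be told apart.

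**Figure D2:**
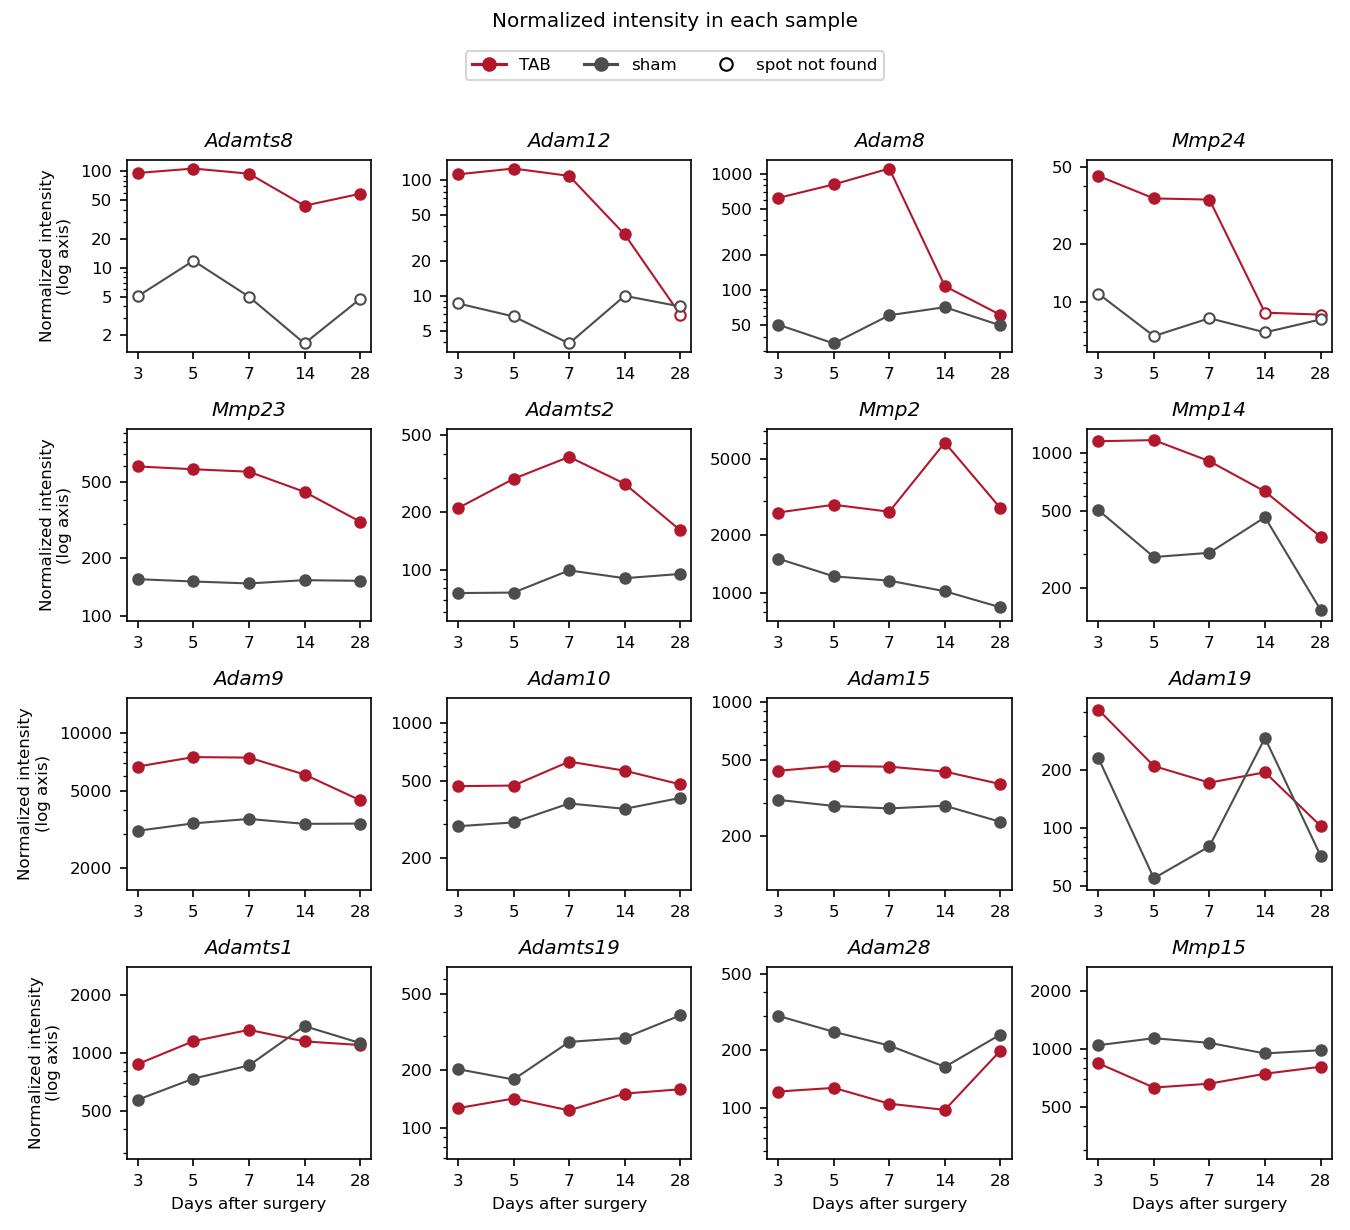
Normalized intensity (log axis, each panel spanning at least 10-fold) of 16 members by day after surgery, with TAB in red and sham in grey. Each point is 1 sample and open points are spots that were not found; in TAB, Adam8 is at 1114 on day 7 and at 61.6 on day 28, and Mmp2 is at 6058 on day 14.

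Of the 2 gelatinases, 1 was higher in TAB. Mmp2 encodes a gelatinase that cuts denatured collagen and basement membrane collagen. In TAB its normalized intensity was 2625, 2880.3, 2649, 6058 and 2768, and in sham it was 1511, 1223, 1161, 1023 and 844. All TAB samples lay above all sham samples, and the day-14 TAB sample was the highest. The mean log2 ratio was 1.50 (SE 0.26, adjusted p = 0.0233). The ratio was larger late, with a mean of 1.07 on days 3, 5 and 7 and 2.14 on days 14 and 28. This difference of −1.07 (95% interval −1.92 to −0.21) had an unadjusted p of 0.0239 and an adjusted p of 0.412. The other gelatinase, Mmp9, showed no difference that could be detected. It measured 41.1, 54.7, 37.2, 33.99 and 21.2 in TAB and 37.2, 36.6, 50.4, 42.5 and 17.5 in sham, with a mean log2 ratio of 0.05 (95% interval −0.38 to 0.48, adjusted p = 0.871).

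Mmp14 encodes the membrane-type protease that activates the Mmp2 precursor. It measured 1155, 1171, 909.7, 633 and 368 in TAB and 506, 289, 304, 465 and 154 in sham. TAB was above sham on each day, but the TAB value of day 28 was below the sham values of days 3 and 14. The mean log2 ratio was 1.30 (SE 0.23, adjusted p = 0.0233). Mmp15, another membrane-type MMP, went the other way and was lower in TAB. It measured 844, 631, 661, 744 and 809 in TAB and 1048, 1139, 1078, 949 and 987 in sham, without overlap. Its mean log2 ratio was −0.50 (SE 0.13, adjusted p = 0.0489). Mmp17, which is held to the membrane by a lipid anchor, missed the threshold at a mean log2 ratio of 0.54 (95% interval 0.12 to 0.96, adjusted p = 0.0800). Its ratios of 0.68, 0.82 and 0.95 on days 3, 5 and 7 stood against 0.27 and −0.04 on days 14 and 28. The remaining membrane-type genes, Mmp16 and Mmp25, were found on no array, as were Mmp21 and Mmp28 of other MMP groups.

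Mmp23 encodes a small MMP without the usual hemopexin part. Its normalized intensity was 599, 579.8, 563, 442 and 309.7 in TAB and 156, 151, 148, 154 and 153 in sham. The sham samples were nearly level over the days, and every TAB sample was above them. On average the log2 ratio was 1.67 (SE 0.17, adjusted p = 0.0120), a 3.19-fold difference. It was largest on days 3, 5 and 7, with a mean of 1.94 against 1.27 on days 14 and 28 (difference 0.66, 95% interval 0.08 to 1.25, unadjusted p = 0.0338, adjusted p = 0.427).

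The stromelysins Mmp3 and Mmp10, the collagenases and matrilysin are neighbours. In the RefSeq annotation, Mmp13, Mmp12, Mmp3, Mmp10, Mmp8, Mmp27, Mmp20 and Mmp7 lie in this order next to each other on chromosome 9, together with Mmp1a and Mmp1b, whose shared probe had no single symbol. Of these 8 members, Mmp3, a stromelysin, was the only one found on all 10 arrays. It measured 152, 190.4, 242, 126 and 93.9 in TAB and 75.6, 70.8, 64.7, 136 and 72.6 in sham. TAB was above all sham samples on days 3, 5 and 7, and below the sham sample on day 14. That sham sample, with the high atrial markers, was the highest of the 5 for Mmp3. Averaged over the days, the log2 ratio was 0.92 (95% interval 0.18 to 1.66, adjusted p = 0.0842), and it was 1.17 (adjusted p = 0.0637) without day 14. Without the day as a block Mmp3 passed the threshold (adjusted p = 0.0391). The early mean was 1.45 and the late mean 0.13, with an unadjusted p of 0.0119 and an adjusted p of 0.399 for the difference.

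Mmp13, a collagenase, was found on all 5 TAB arrays and on 3 of 5 sham arrays. Its raw intensity was 76, 91, 102, 70 and 91 in TAB and 93, −4, 3, 56 and 63 in sham, and the negative day-5 sham value removed it from the test. The sham spot was not found on days 5 and 7, so that no mean ratio is given. On days 3, 14 and 28 the median-scaled intensity of Mmp13 was 105, 76.5 and 77.8 in TAB and 82.5, 54.8 and 51.9 in sham. Mmp12, the macrophage elastase, was found on no TAB array and on 3 sham arrays, with 33.7, 10.7, 10.5, 20.4 and 15.8 in TAB and 33.02, 26.6, 29.9, 21.4 and 40.99 in sham. Its mean log2 ratio was −0.85 (95% interval −1.55 to −0.15, adjusted p = 0.0902), between levels that were mostly not well above background. Mmp8, the neutrophil collagenase, as well as Mmp10, Mmp7, Mmp20 and Mmp27, were found on no array. Mmp11 and Mmp19, which lie elsewhere, were found on all arrays and not called, with mean log2 ratios of 0.09 (95% interval −0.23 to 0.41) and 0.18 (−0.30 to 0.67).

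Promoter windows of 300 bases (250 before and 50 after the start of a gene) were taken from RefSeq for GRCm38.p6, where 39 of the 67 members had 44 windows. The letters TGACTCA, a binding motif of the AP-1 factors, were searched on both strands, so that TGAGTCA counted as well. They stood in 8 of the 44 windows (18.2%), against 5.20% of 32851 windows of all genes. The holders were Mmp3, Mmp7, Mmp10, Mmp12, Mmp13, Adam19, Adam29 and Adam1b. All the MMP genes among them are neighbours on chromosome 9. None of the holders was called, and Mmp7, Mmp10 and Mmp13 were not tested. Of the called members, 9 had a window. The letters CATTCC (TEAD motif) stood in 6.82% of the members' windows and 14.7% of all windows, and TGTGGT (RUNX motif) in 20.5% and 16.8%. None of the 3 motifs holds another. A match is a description of letters and not a binding site, and the search does not bear on the factors.

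The AP-1 letters are shown for the 5 chromosome 9 neighbours that hold them and for Adam19, since these genes share the letters and differed in detection. Each line gives the 29 bases around the motif in capitals, read 5′ to 3′ on the plus strand, which is the strand of the gene in all 6. The first capital lies 35 bases before the start in Mmp13, 44 in Mmp12, 46 in Mmp3, 63 in Mmp10 and in Mmp7, and 131 in Adam19.
Mmp13, chr9:7272468-7272496, plus strand, GRCm38.p6: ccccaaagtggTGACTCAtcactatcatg
Mmp12, chr9:7347319-7347347, plus strand, GRCm38.p6: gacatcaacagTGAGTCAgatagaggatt
Mmp3, chr9:7445765-7445793, plus strand, GRCm38.p6: ggaagcaattaTGAGTCAgttttcgggtg
Mmp10, chr9:7502268-7502296, plus strand, GRCm38.p6: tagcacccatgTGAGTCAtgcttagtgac
Mmp7, chr9:7692016-7692044, plus strand, GRCm38.p6: aagtgtgcaaaTGAGTCAcctatttccac
Adam19, chr11:46055842-46055870, plus strand, GRCm38.p6: tgtccttcaccTGAGTCAgcgatgctccc
Of these 6 genes, Mmp3 and Adam19 were found on all 10 arrays, Mmp13 on 8, Mmp12 on 3, and Mmp10 and Mmp7 on none.

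Among the membrane ADAMs, Adam9, Adam10 and Adam15, all of which shed membrane proteins, were higher in TAB by 0.59 to 0.91 on the log2 scale. Adam9 measured 6703, 7501, 7455, 6089 and 4477 in TAB and 3107, 3394, 3579, 3374 and 3385 in sham. All TAB values lay above all sham values, and the mean log2 ratio was 0.91 (SE 0.14, adjusted p = 0.0205). Adam10, the sheddase of Notch receptors, measured 472, 475, 633, 568 and 482 in TAB and 292, 306, 383, 359.6 and 409.8 in sham. These groups did not overlap either, and the mean log2 ratio was 0.59 (SE 0.12, adjusted p = 0.0282). Adam15 measured 439, 465, 461, 435 and 374 in TAB and 309.9, 288, 279.6, 289 and 238 in sham, again without overlap, and the ratio averaged 0.63 on the log2 scale (SE 0.10, adjusted p = 0.0193). Another probe of Adam15 gave 129, 134, 108, 138 and 141 in TAB and 144, 94.04, 119.6, 111 and 78.3 in sham. There the groups overlapped and the log2 ratio was 0.27 (adjusted p = 0.326). With the mean of both probes the Adam15 call was lost.

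Adam17, the enzyme that sheds tumour necrosis factor, was left out of the test by 1 spot. Its raw intensity was −2, 290, 435, 330 and 372 in TAB and 271, 202, 263, 327 and 363 in sham, and only the day-3 TAB spot was not found. With day 3 left out, the mean log2 ratio was 0.23 (SE 0.14, adjusted p = 0.335).

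Adam19, known for shedding of neuregulins, varied strongly among the sham samples. It measured 412, 209.8, 172, 195 and 103 in TAB and 231, 54.8, 80.2, 294 and 71.9 in sham. The sham values were high on days 3 and 14 and low on days 5, 7 and 28, and the groups overlapped. Its log2 ratio averaged 0.76 (95% interval −0.08 to 1.59, adjusted p = 0.173), and 1.09 (adjusted p = 0.0659) without day 14, whose sham sample had the high atrial markers. The sham samples of days 3 and 14 also stood apart in the clock gene Dbp, chosen after the values were seen, with 270.2, 2875, 2964, 2567 and 4616 in TAB and 258, 2883, 5863, 385 and 5259.7 in sham. The part of daily rhythm or of atrial tissue in the Adam19 ratios was not tested. Adam33 was found on no array, and its 2 probes had opposite signs.

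Adam28 and Adam7 were lower in TAB. Adam28, a membrane protease known from lymphocytes, measured 122, 127, 105, 97.8 and 199 in TAB and 301, 249, 211, 164 and 241 in sham. Each TAB value was below the sham value of its day, although the day-28 TAB value was above the day-14 sham value. The other probes of Adam28 were found on no array and were removed before the test. On the tested probe, the log2 ratio averaged −0.86 over the 5 days (SE 0.17, limma adjusted p = 0.0265). Of 7 tested T and B cell genes, 1 was higher and 1 lower, and the sums over the 7 were 476, 452, 448, 506 and 581 in TAB and 790.4, 625, 600.2, 570.3 and 798 in sham. Each TAB sum lay below the sham sum of its day, but the sums were made up mostly of Cd3e, a T cell receptor subunit, and Cd79a, a B cell receptor subunit, the only 2 of the 7 found on all arrays. Cd3e was called lower (−0.59, adjusted p = 0.0325) and Cd79a was not called (−0.49, adjusted p = 0.0577). Cd3d, another T cell receptor subunit, was called higher (adjusted p = 0.0335) and was found on 2 TAB arrays only. The part of these cells in the Adam28 values was not tested. Adam7, known from the epididymis, measured 88.3, 94.6, 81.8, 101 and 146 in TAB and 170.0, 121, 151, 125 and 195 in sham, and the ratio averaged −0.58 on the log2 scale (SE 0.14, adjusted p = 0.0438). For Adam1a all TAB values were below all sham values, but its adjusted p was 0.0599 at a mean log2 ratio of −0.66.

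Of the remaining ADAM genes, Adam5, Adam6a, Adam11 and Adam22 were found on all arrays and not called, with mean log2 ratios from −0.50 to −0.02. Adam23, Adam29, Adam30 and Adam32 were found on 2 to 9 arrays and not called. Those found on no array were Adam1b, Adam2, Adam3, Adam4, Adam18, Adam21, Adam24, Adam25 and Adam33. Several of these are sperm proteins. Of 6 germ cell markers of the testis, 5 were likewise found on no array.

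Among the ADAMTS proteases, Adamts2 encodes a procollagen N-proteinase, which trims fibrillar procollagens. It measured 209, 297, 386, 279.9 and 160.4 in TAB and 75.6, 76.1, 99.2, 90.4 and 95.1 in sham. The TAB values were highest on day 7 and lowest on day 28, and all lay above all sham values. Another probe of the gene was found on no array and was removed before the test. On the tested probe, Adamts2 had an average log2 ratio of 1.56 (SE 0.20, limma adjusted p = 0.0154), a 2.94-fold difference. Its relatives Adamts3 and Adamts14 were found on no array.

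Adamts9 and Adamts17 were higher in TAB by less. Adamts9, which cuts versican and aggrecan, measured 264, 172, 197, 174 and 174 in TAB and 140.2, 88.4, 131, 141 and 138 in sham. The groups did not overlap, and the mean log2 ratio was 0.62 (SE 0.15, adjusted p = 0.0390). Adamts17 measured 42.7, 63.3, 50.4, 60.2 and 43.8 in TAB and 25.7, 40.4, 39.5, 31.9 and 37.97 in sham and was found on 9 arrays, all but the day-3 TAB array. Its mean log2 ratio was 0.57 (SE 0.14, adjusted p = 0.0416).

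Among the other versican and aggrecan cutters, Adamts1 measured 874, 1150.2, 1316, 1147 and 1098 in TAB and 571, 734, 859.8, 1377 and 1124 in sham. TAB was above sham on days 3, 5 and 7 and below it on days 14 and 28. On average the log2 ratio was 0.32 (95% interval −0.12 to 0.75, adjusted p = 0.261). The sham values were lowest on day 3 and highest on day 14, in the sample with the high atrial markers, while the TAB values stayed between 874 and 1316. Without day 14 the log2 ratio of Adamts1 was 0.46 (adjusted p = 0.140), and the part of atrial tissue in this value was not tested. Adamts5 was found on all arrays, with a mean log2 ratio of 0.14 (95% interval −0.22 to 0.49, adjusted p = 0.550), and Adamts4 was found on none. Adamts7 and Adamts10 were found on all arrays and were not called, with mean log2 ratios of −0.14 (95% interval −0.49 to 0.21) and −0.23 (−0.57 to 0.10).

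Adamts19 was the member with the lowest mean log2 ratio. It measured 127, 143, 124, 151 and 159 in TAB and 203, 179, 281, 295 and 386 in sham. The groups did not overlap, and the sham values of days 7, 14 and 28 were above those of days 3 and 5. Averaged over the days, the log2 ratio was −0.88 (SE 0.17, adjusted p = 0.0260). Adamts12 was also called lower (adjusted p = 0.0400), but it was found on no TAB array and on 1 sham array, so that most of its values were not well above background and no size of change is given. Adamts16 passed 2 SD on days 3 and 5 and was found on no array. Adamts6 and Adamts20 were found on 9 and 7 arrays and not called, and the 2 tested probes of Adamts20 had opposite signs. Adamts13, which cuts von Willebrand factor, was found on no array, and neither were Adamts15 and Adamts18.

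**Figure D3:**
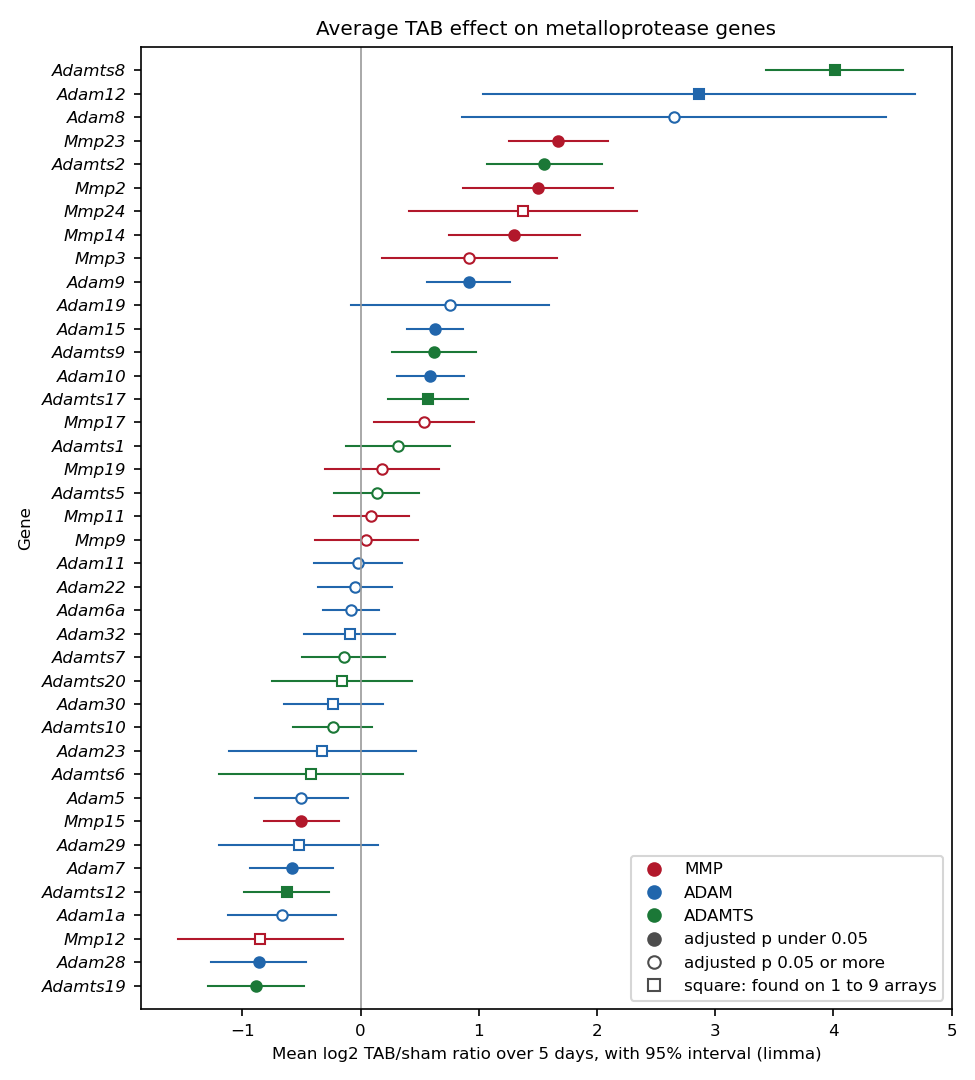
Mean log2 TAB/sham ratio over the 5 days with its 95% interval from limma for the 40 tested members found on at least 1 array, coloured by family. Filled symbols passed the adjusted threshold and squares mark members found on 1 to 9 arrays; the means run from −0.88 for Adamts19 to 4.01 for Adamts8.

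Calls per day were most numerous on day 5 and fewest on day 28. In order of day, 6, 9, 7, 5 and 2 members were called up, and none was called down on any day. Of all genes, 3.10%, 4.09%, 4.08%, 3.39% and 3.41% were called up on the same days, and 2.10%, 1.43%, 1.58%, 2.27% and 2.47% down. On at least 2 days, 8 members were called up, among 3.84% of all genes, and none was called down, among 1.63%. The 2 members of day 28 were Adamts8 and Mmp2. With a threshold of 1 on the log2 scale, calls over the 5 days came to 44 up and 16 down of 235 ratios of the 47 members (18.7% and 6.81%), where 9.07% and 7.28% of the ratios of all genes passed it. As a view of the spread without banding, a pair of sham samples of different days had 0 to 4 of the 28 members found on all arrays beyond 1 (median 1.5). TAB against sham on the same day gave 3 to 10 (median 7).

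The difference between days 3 to 7 and days 14 and 28 was tested for all 47 members. None passed the adjusted threshold in limma, as was the case for all 16113 genes, while 12 members had an unadjusted p under 0.05. These were Adam8, Mmp24, Adam12, Mmp8, Adamts1, Mmp3, Mmp17, Mmp2, Mmp23, Adam18, Adam19 and Adam5. The ratio was higher on the early days for 10 of them, and for 6.54% of all genes at this threshold. It was lower on the early days for the other 2, Mmp2 and Adam5, and for 4.42% of all genes. Mmp8 and Adam18 were found on no array. Adam8 passed the adjusted threshold in 3 other settings, with an adjusted p of 0.0322 without the dimmest tertile of genes, 0.0227 with 50 added to the intensities and 0.00320 with limma's trend and robust options. Over all genes 9 of 10742, 10 of 16113 and 34 of 16113 passed in these settings.

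**Figure D4:**
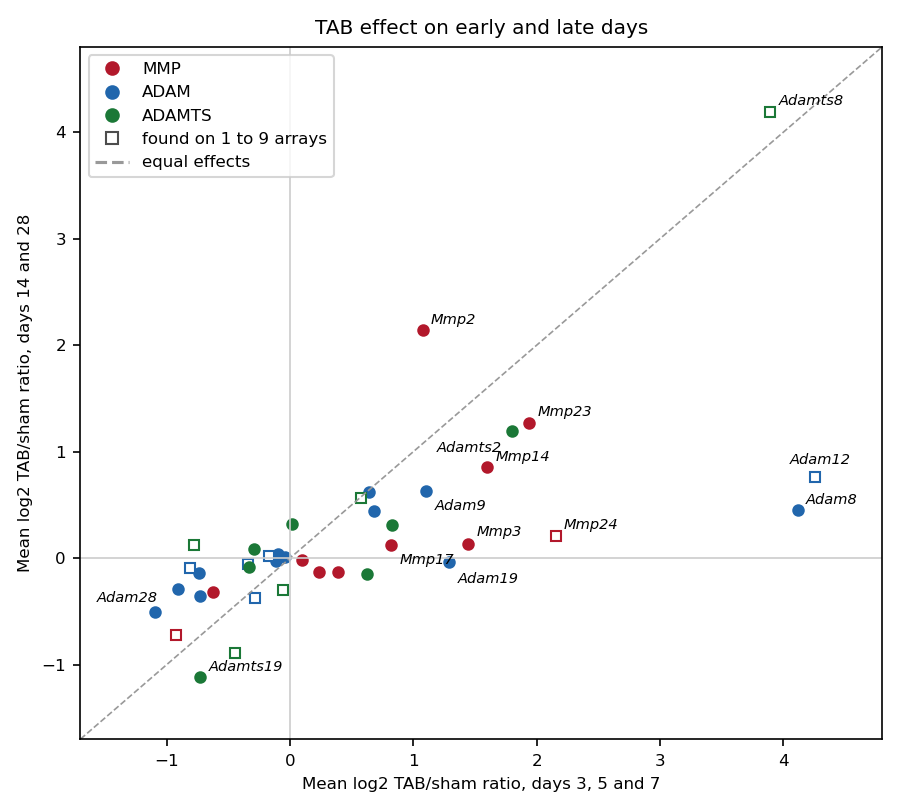
Mean log2 TAB/sham ratio on days 3, 5 and 7 (horizontal axis) against days 14 and 28 (vertical axis) for the 40 tested members found on at least 1 array. Adam8 lies far below the dashed line of equal effects, at 4.12 early and 0.45 late, and Mmp2 lies above it. Adam12 and Mmp24 also lie below it, but their ratios are against sham spots that were not found.

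The inhibitors, activators and substrates of the proteases were set beside them as lists. Timp1, which inhibits most MMPs, measured 7623, 12989.5, 9534, 1772 and 807 in TAB and 121, 114, 160.3, 128 and 129.8 in sham. It was above all sham samples on each day, and highest on day 5. Its log2 ratio averaged 5.02 (SE 0.63, adjusted p = 0.0154). Timp2 was higher as well, at 0.60 (SE 0.15, adjusted p = 0.0450). Timp3 and Timp4 were not called, at 0.35 (SE 0.21, adjusted p = 0.294) and −0.32 (SE 0.35, adjusted p = 0.546). Of 8 tested inhibitors 3 were higher, none lower and 5 not called, with a median of 0.38. The third was Tfpi2, a serine protease inhibitor, at 1.51 (SE 0.25, adjusted p = 0.0224).

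Of 15 tested activators and maturation factors, 4 were higher, 1 lower and 10 not called, with a median mean log2 ratio of 0.31. Higher were Tspan5 (1.23) and Tspan17 (1.10), tetraspanins that guide Adam10 to the cell surface, Plat (0.77), which activates plasminogen, and Rhbdf1 (0.60), which carries Adam17. Tspan33, another tetraspanin partner of Adam10, was lower (−0.61). Of 8 other metalloproteases, Bmp1 (1.05), a procollagen C-proteinase, and Ace (0.75) were higher and Pappa2 was lower while found on no array. Of 7 ADAMTS-like proteins, which lack the protease part, Adamtsl2 (1.62) and Adamtsl3 (0.76) were higher and 5 were not called.

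Of 28 membrane ligands and receptors known to be shed by ADAMs, 8 were higher, 2 lower and 18 not called, with a median of 0.30. The higher ones included Cd44, at least 4.25-fold up with no sham spot found, and Cx3cl1, a chemokine, at 1.42. Hbegf, an EGF receptor ligand, was at 1.11 and Vcam1, an adhesion molecule, at 0.90. Egf (−0.62) and Epgn (−0.49) were lower. Of 23 matrix substrates, 15 were higher, none lower and 8 not called, with a median of 1.66. These included Tnc (4.06), Spp1 (3.90), Col3a1 (3.68), Col1a2 (3.49), Postn (3.37) and Fn1 (2.80). Vcan, the versican cut by several ADAMTS proteases, was at 1.66 (SE 0.23, adjusted p = 0.0160).

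Of 6 tested fibroblast genes 4 were higher in TAB. The sums over the 6 were 36220.2, 42371, 44958, 42903 and 28974 in TAB and 19684, 20451, 22852, 23021 and 20583 in sham. These sums were made up mostly of Dcn and Postn. On day 3 Postn measured 14363 in TAB and 1262 in sham, and Dcn measured 16961.5 and 15348. Among the 4, Col3a1, Postn and Lum are themselves matrix genes of the list above, so that Ddr2 was the only called one outside it, and Dcn and Tcf21 were not called. None of 8 cardiomyocyte and none of 6 endothelial genes was called. Among the cardiomyocyte genes, Myl2 measured 65495 to 65500 in every sample but the day-28 sham sample (60326). With values this level, its lack of a call says little. Of 4 tested smooth muscle genes 1 was higher, Tagln, an actin-binding protein of smooth muscle, with 66.5, 73.05, 58.9, 14.4 and 20.7 in TAB and 6.84, 3.62, 5.00, 10.99 and 5.58 in sham. Its spot was found on 4 TAB arrays and on no sham array. Tagln was called (limma adjusted p = 0.0320), but no bound on the fold is given, as not every TAB spot was found. Acta2, Myh11 and Smtn were not called. The part of fibroblast or smooth muscle cell number in the protease values was not tested.

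**Figure D5:**
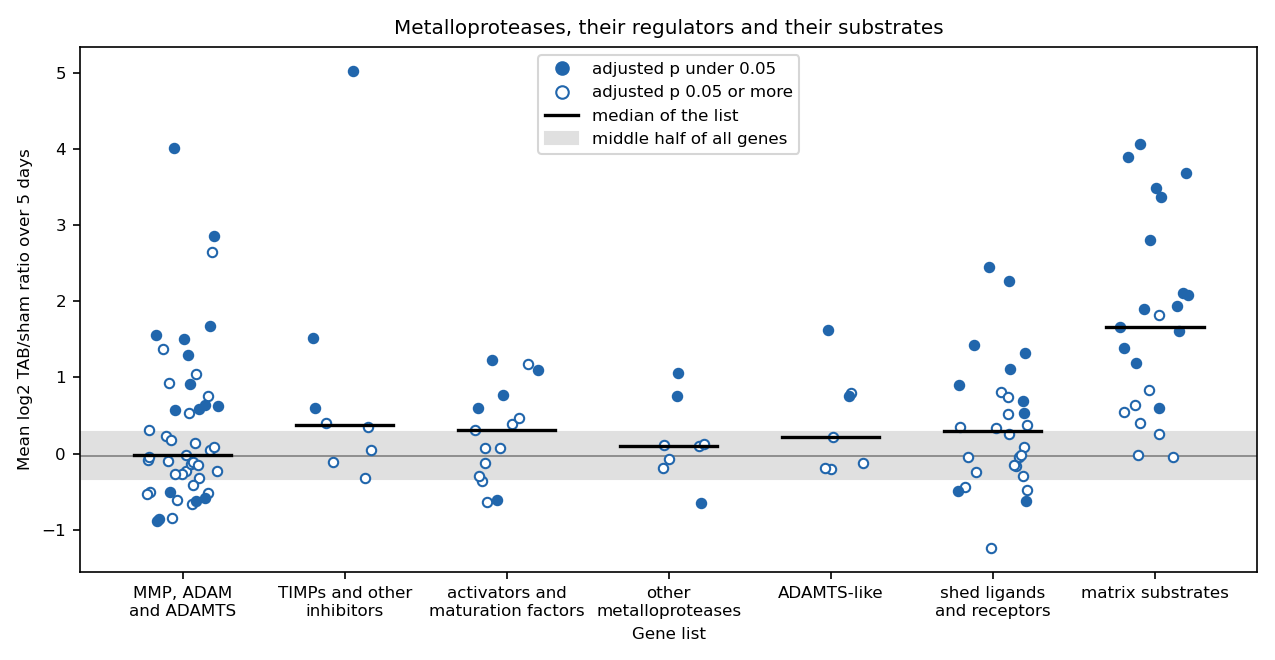
Mean log2 TAB/sham ratio over the 5 days for the 47 tested members and the genes of 6 related lists, with filled points for genes past the adjusted threshold. Black bars are list medians and the grey band holds the middle 50% of all 16113 genes; the median of the matrix substrates is 1.66 and that of the members −0.02.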

How the data were processed

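The authors labelled left ventricle RNA with Cy5, hybridized it to the Mouse Whole Genome OneArray v2 and read it with GenePix 4.1, per the labels and methods. They deposited raw probe intensity after an unstated background subtraction, a detection p-value (deposited but not used here) and a flag score; the deposited flag of −50 was read as not found. Arrays were scaled to a common median, probes below 1 in any of the 10 samples were removed (6447 of 26423), and quantile normalization used the median over samples at each rank, before log2. The gene tests leave out 3633 probes that carry no symbol. Of several probes of a gene, that whose absolute log2 ratios summed highest over the days was used. limma 3.58.1 (R 4.3.3; trend and robust off) tested the operation with the day as a block, and its interaction with stage (days 3 to 7 or later). A fold against a group found on no array was bounded by the dimmest found intensity of each array. Such a bound is given only where all spots of the other group were found. The fit was also run on simulated data with known changes, and the outcome is not reported here. The array's genome build was not given in the sources used here, so no probe coordinates are printed. The promoter windows and their coordinates are RefSeq's for GRCm38.p6. Genes were named when called, when past 2 SD of a day in 1 direction on at least 2 days, when belonging to listed MMP, ADAM and ADAMTS groups, or when their probes differed in sign. The members, lists and settings were chosen with earlier results of these data known. The miRNA arrays were not used here. Python 3.11.15, numpy 2.4.6, pandas 2.3.3 and matplotlib 3.10.9 were used.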

Additional observations from a re-analysis of the deposited data

Results flagged for a closer look

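The log2 TAB/sham ratio of Adamts1 was above 0 on days 3, 5 and 7 and below 0 on days 14 and 28 (0.62, 0.65, 0.61, −0.26 and −0.03). Adamts1 was not called (adjusted p = 0.261 in limma), its day-28 value was close to 0, and the difference of the early and late means, 0.78, did not pass the test (adjusted p = 0.394 in limma).

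In 4 of 56 groups of 5 samples, 1 sample lay apart from the others by a gap that was too large a share of the range for Dixon's 95% limit, where chance gives about 5% of groups. These were the high day-14 TAB value of Mmp2 (gap 0.889 of the range), the low day-5 sham value of Adamts9 (0.839), the low day-14 sham value of Adamts7 (0.813) and the high day-14 sham value of Mmp3 (0.788).

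The Mmp13 probe was removed before the test and was found on 5 TAB arrays and 3 sham arrays.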

How the results depend on the processing

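Adamts8 was called in all 15 alternatives that kept it, with log2 ratios from 1.20 (50 added to the intensities) to 4.20. Members called higher numbered 11, against 5 with low probes set to 1 and kept, and 1 to 14 with a day left out, where calls over all genes went from 1481 higher and 1268 lower of 16113 to 459 and 218 of 19942 with low probes set to 1, and to 22 to 1460 and 1 to 1246 with a day left out. Members called lower numbered 5, against 3 with median scaling only, 3 with quantile normalization within each operation, 1 with low probes set to 1, and 0 to 2 with a day left out. Over all genes the split of higher and lower calls became 1782 and 855 with median scaling and 1871 and 950 within each operation. Members that differed between early and late days numbered 0, against 1 (Adam8) without the dimmest tertile, with 50 added and with trend and robust on. Calls per day over the 5 days came to 29 up, against 17 without the dimmest tertile and 44 at a log2 ratio of 1, and 21 to 25 with a day left out. Downward calls numbered 0, against 1 with median scaling only, without the dimmest tertile, with the brightest probe, with the mean of probes or with every probe counted. They numbered 2 without probes found on fewer than 5 arrays or with 50 added, 12 with low probes set to 1, 16 at a log2 ratio of −1 or below, and 0 to 3 with a day left out. The sign turned for Adamts5 with median scaling only (−0.0159), for Adamts12 with low probes set to 1 (0.63) and for Mmp9 with a day left out (−0.0856 to 0.19). The cause of these changes was not tested.

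Samples were paired by day. After subtraction of each operation's mean, the 2 samples of a day correlated over genes at 0.113 on day 3 and at −0.0165, 0.00650, 0.00292 and 0.0140 on the later ones. Without the replicate block 14 members were higher, with Adam8, Mmp17 and Mmp3 added, and 5 lower, with Adam1a and Adam5 in place of Adam7 and Adamts12, and 0 differed between early and late days.

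Signal near background limits 39 of the 67 members, which were not found on every array, and for genes found on neither side no change can be given. With 1 sample per operation and day, no single day can be tested.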
